A study of Mus musculus with 5 samples.

Results

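Fat oxidation and ketogenesis genes were read from RNA of mouse small intestine as 32 listed genes, chosen by symbol for their place in mitochondrial and peroxisomal oxidation, ketone body metabolism and the PPAR target program. All 32 were among the 19198 genes of the count table, and 30 of the 32 passed the filter on low counts. The study compared intestine in which cells expressing Math1 were targeted for loss of Chrm4, the gene of the M4 muscarinic receptor for acetylcholine, with intestine that lacked the Cre. The Cre-positive group held 2 mice labelled Math1Cre*PR mAchR4 fl/fl, and the Cre-negative group held 3 mice labelled mAchR4 fl/fl without the Cre. Both groups carried the floxed Chrm4 alleles. Every one of the 5 mice received RU486 by gavage, 10 mg/kg each day over 4 days, and the groups thus did not differ in the drug. RU486 is a progesterone receptor ligand that activates Cre*PR, a recombinase that works only once its progesterone receptor domain has bound the drug. RU486 also blocks the glucocorticoid receptor. Math1 (gene symbol Atoh1) drives the secretory lineage of the intestinal epithelium, whereas absorptive enterocytes, which handle most dietary fat, do not depend on it. The labels give neither the age of the mice nor the stretch of intestine sampled, and no Cre-positive mouse with unfloxed Chrm4 was among the samples, so Cre activity and Chrm4 targeting cannot be told apart.

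Long-chain fatty acids enter mitochondria as carnitine esters and are then shortened by repeated rounds of dehydrogenation, hydration, a further dehydrogenation and thiolysis. Electrons from the acyl-CoA dehydrogenases pass through the electron transfer flavoprotein to the respiratory chain. Peroxisomes shorten very long and branched chains by a parallel route. The acetyl-CoA produced can be turned into ketone bodies. PPARalpha, a nuclear receptor that binds fatty acids, raises transcription of many of these genes, and in the intestine the program is most active in villus enterocytes.

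Library totals ran from 4681113 to 6618213 estimated counts, and mitochondrially encoded genes took 17.3% to 23.8% of them. Counts of Chrm4 itself were 4, 20 and 4 for Cre-negative 1, 2 and 3, against 13 and 5 for Cre-positive 1 and 2, too few to check the genotype labels in whole tissue. All 19 listed markers of enterocytes were present, Apob at 8822 to 19849 CPM (read counts relative to library size, scaled by TMM) and the villin gene Vil1 at 603 to 1066 CPM. Of 10 adipocyte markers, a cell type that shares many fat genes with the members, 8 were present and 4 passed the filter. The 8 summed to 43.2 to 95.6 CPM a library. Adipoq stood at 0 to 1.35 CPM and Plin1 at 0.155 to 1.16 CPM, so other markers made up most of that sum. Lep and Retn were absent from the table used. Cre-negative 1 was highest for all 10 listed smooth muscle markers, which summed to 3898 CPM against 1275 to 1963 CPM elsewhere. All 7 fibroblast markers were highest there too, with a sum of 668 CPM against 190 to 366 CPM. Cre-positive 1 stood apart from the other 4 libraries in other markers. Its 9 leukocyte markers summed to 227 CPM against 23.0 to 34.5 CPM elsewhere. Gata4, a regulator of proximal intestine, stood at 0.387 CPM in this mouse against 19.8 to 47.4 CPM. It is 1 of 7 proximal markers present, and their sum went the other way. That sum was 269 CPM in Cre-positive 1, the highest library, against 157 to 260 CPM elsewhere. Gene by gene, however, Cre-positive 1 was the lowest library for 3 of the 7, or 42.9%, against 29.0% of all genes tested. It was the highest for 1 of the 7, or 14.3%, against 25.3% of all genes. The medians and fold changes of members below are also given without Cre-positive 1.

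No member passed the test between Cre-positive and Cre-negative intestine. Among 30 members in edgeR's quasi-likelihood fit, 0 were higher and 0 lower at an adjusted p of 0.05 (all between 0.977 and 0.993), where 0% of all 14352 genes were called. At an unadjusted p under 0.05 there were 0 members, where 3.38% of all genes passed. DESeq2 and limma-voom also called 0 members. Each had 1 member at an unadjusted p under 0.05, where 473 and 335 of all 14352 genes passed, in that order. Log2 fold changes, Cre-positive over Cre-negative throughout, were below 0 for 21 of 30 members, or 70%, against 54.5% of all genes tested. Their median was -0.18, beside -0.04 over all genes tested and a median standard error (SE) of 0.30 for a member. The median depended on the mouse: it was 0.10 without Cre-positive 1, 0.04 without Cre-negative 3 and -0.33 without Cre-positive 2. Without Cre-positive 1, 13 of 30 members had negative log2 fold changes, and the median over all genes tested was -0.03. The sign of the members' median therefore changed with the choice of mice.

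**Figure D1:**
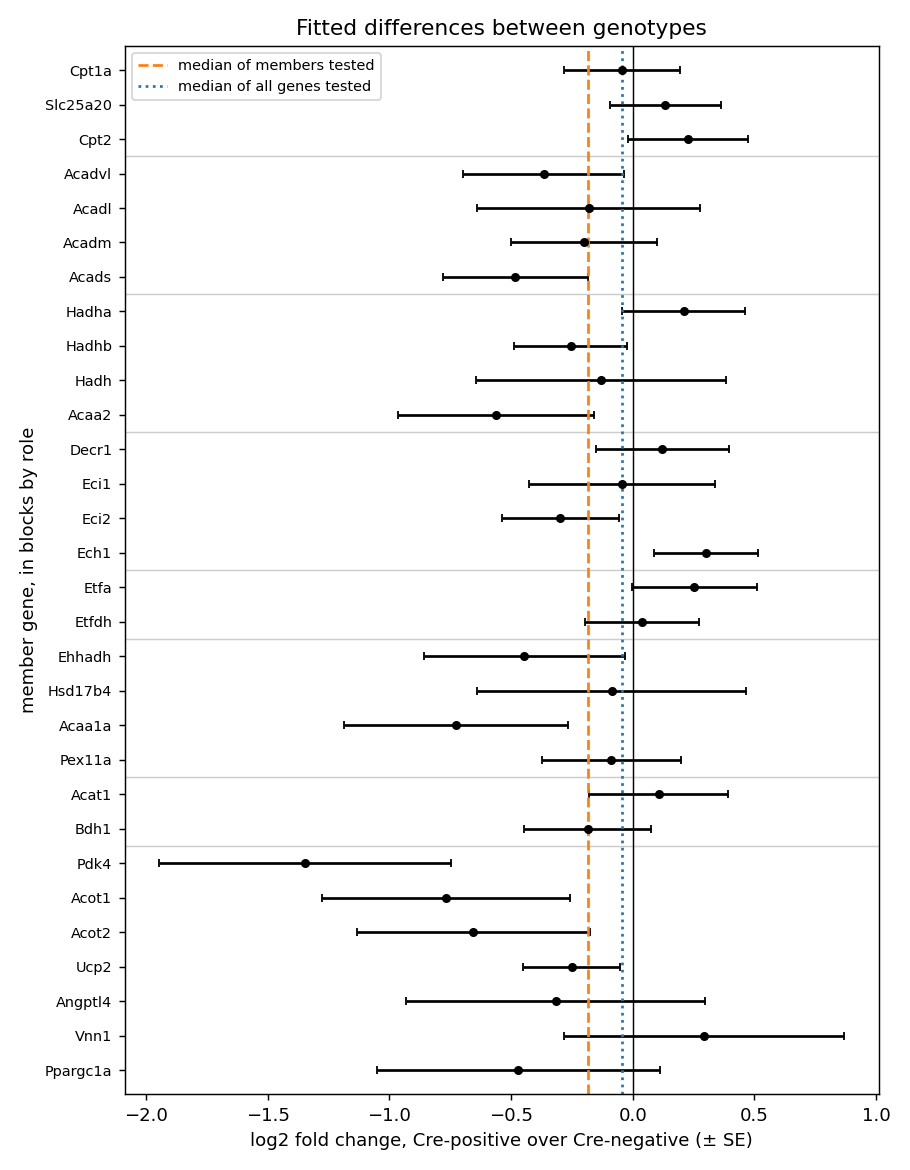
Fitted log2 fold change (horizontal axis, Cre-positive over Cre-negative, with SE bars) of the 30 members tested, in blocks by role on the vertical axis. The dashed line is the members' median of -0.18 and the dotted line the median of -0.04 over all genes; Pdk4 at -1.35 lies farthest from 0.

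Groups that did not overlap were about as common among the members as among all genes. For 4 of 30 members both Cre-positive mice lay below all 3 Cre-negative mice (Acads, Eci2, Acaa1a and Ucp2), and this held for 10.2% of all genes tested. For 1 of 30, Ech1, both lay above, as for 7.89% of all genes. Eci2, Acaa1a and Ucp2 are less certain. Their deposited counts were not whole in 5, 4 and 5 libraries, and their exons overlap a gene on the opposite strand. Cre-positive 2 exceeded Cre-positive 1 in 26 of the 32 members, and the same count over all genes was not made. Among those tested, the excess ran from 1.02-fold for Ech1 to 4.84-fold for Vnn1. Cre-positive 1 was the lowest of the 5 libraries for 15 of 30 members tested, or 50%, whereas it was lowest for 29.0% of all genes tested. Cre-negative 3 was the highest library for 15 of 30 members, against 17.0% of all genes.

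**Figure D2:**
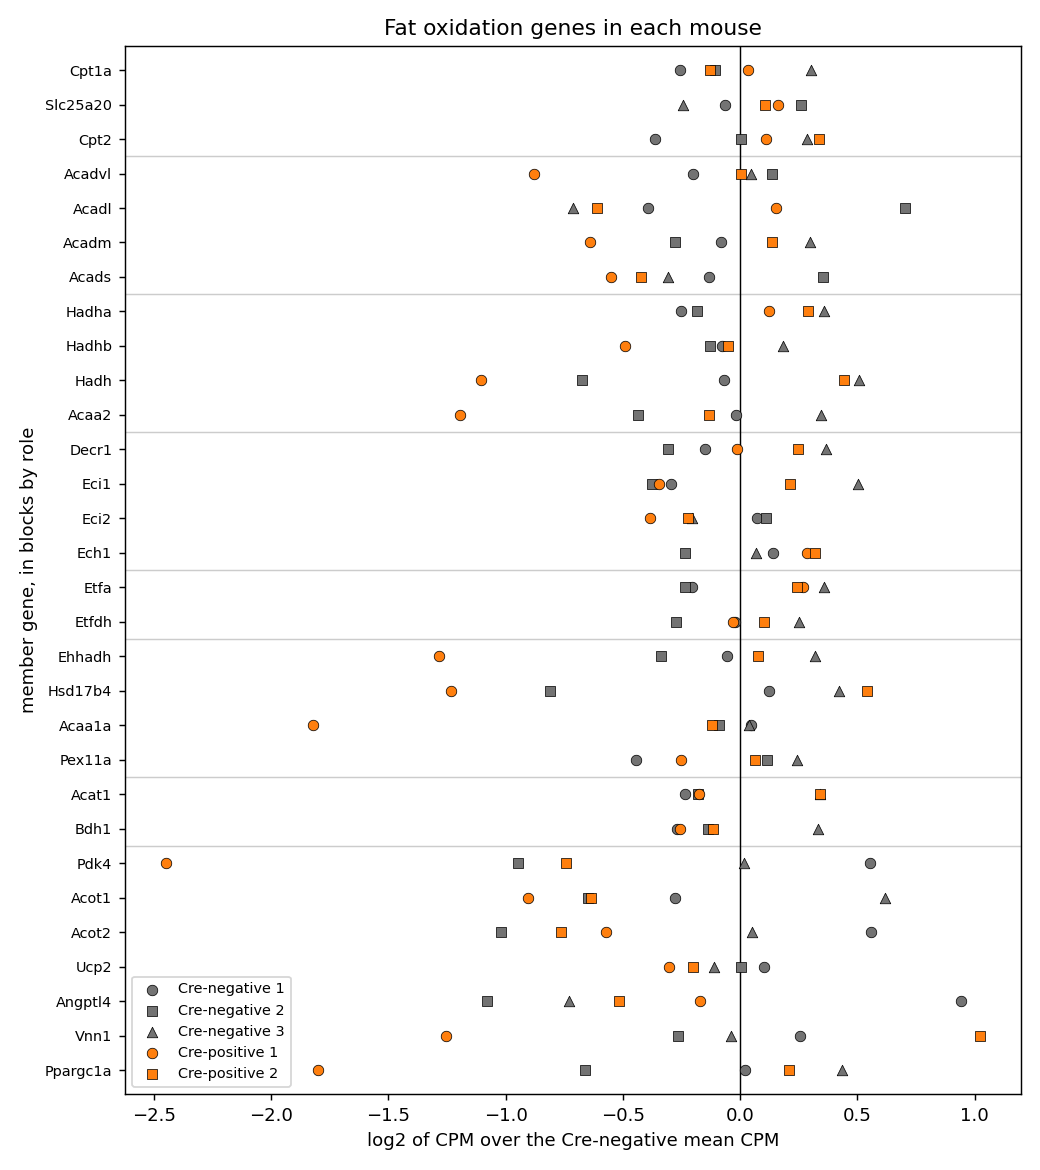
CPM of the 30 members tested in each mouse as log2 of its ratio to the Cre-negative mean (horizontal axis), with genes in blocks by role on the vertical axis, grey symbols for Cre-negative and orange for Cre-positive mice. Cre-positive 1 (orange circles) lies far to the left for Pdk4, Acaa1a and Ppargc1a, while Cre-positive 2 (orange squares) mostly lies among the grey symbols, with Vnn1 as an exception.

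Levels can be compared between genes only per length of exon, here the union of all annotated exons of a gene, and on that scale Hadh and Vnn1 led. Hadh, the mitochondrial dehydrogenase of short and medium hydroxyacyl-CoA, averaged 82.3 CPM per kb of exon over the 5 mice. Vnn1, the pantetheinase vanin-1 and a classic PPARalpha target, averaged 74.1 CPM per kb, and Cpt2 was next with 39.3 CPM per kb. Acadl, Ech1, Acadm, Etfa, Ucp2, Ehhadh and Ppargc1a lay between 30.5 and 20.1 CPM per kb. At the low end stood Acot1 at 0.927, Acaa1b at 0.457 and Etfb at 0.348 CPM per kb. For each pair of neighbours in this order of 32 genes the ranges over mice overlapped. The order also depends on the annotated length. Hadha, at a mean of 172 CPM over 8.73 kb, came to 19.7 CPM per kb, below Cpt2 at 94.0 CPM over 2.39 kb.

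**Figure D3:**
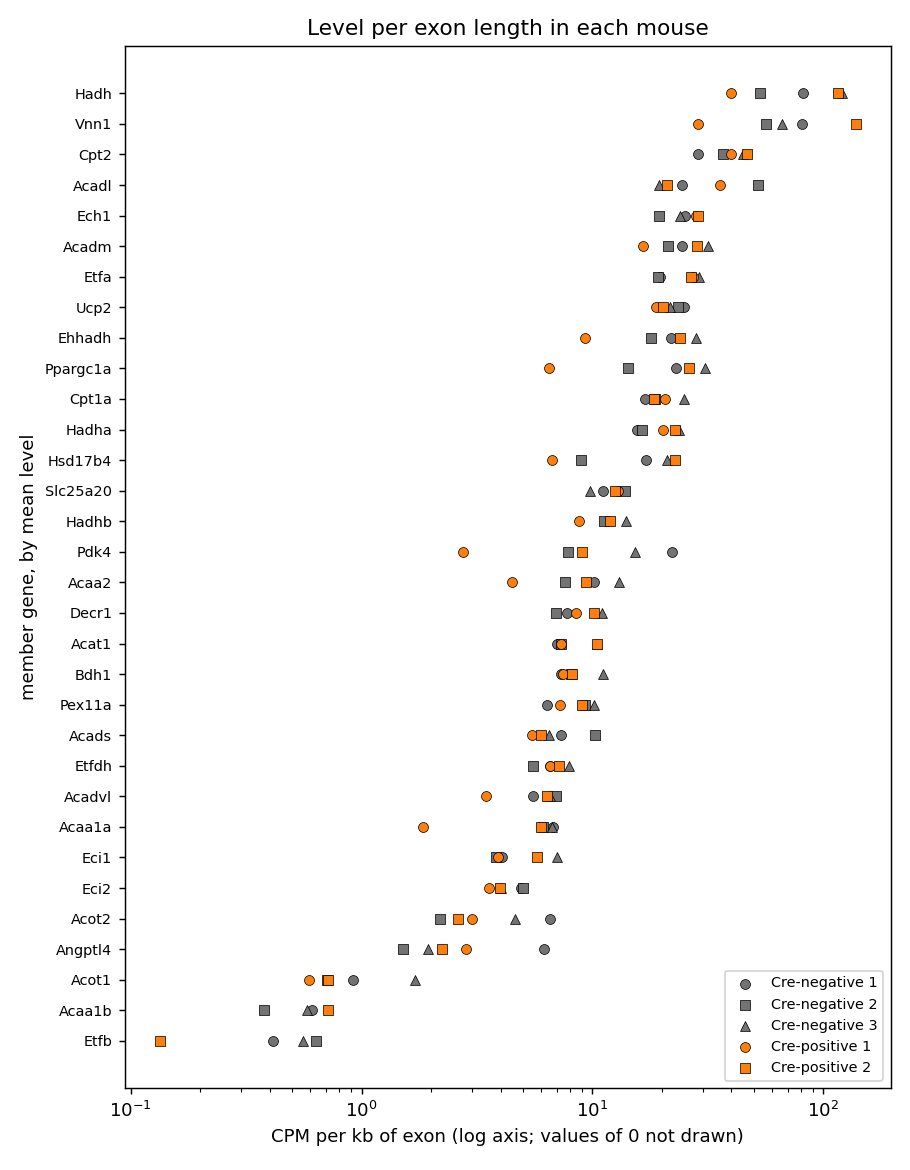
Level of each of the 32 members in CPM per kb of exon (horizontal log axis) in each mouse, ordered by the mean over mice. Hadh (mean 82.3) and Vnn1 (mean 74.1) lead, and Etfb (mean 0.348) is lowest, with values of 0 not drawn.

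The carnitine shuttle genes differed little between the groups. Cpt1a makes acylcarnitines at the outer mitochondrial membrane, the step that limits entry. It stood at 129, 143 and 190 CPM in Cre-negative 1, 2 and 3 and at 158 and 141 CPM in Cre-positive 1 and 2. Both Cre-positive values lay inside the Cre-negative range (log2 fold change -0.04 ± 0.24, SE). Slc25a20, the carrier that exchanges acylcarnitine for carnitine across the inner membrane, stood at 53.7, 67.3 and 47.4 CPM against 62.7 and 60.5 CPM (0.13 ± 0.23). Cpt2, which returns the chain to CoA inside, stood at 68.3, 88.2 and 107 CPM against 95.0 and 111 CPM (0.23 ± 0.25). For Cpt2 the highest mouse was Cre-positive 2, at 1.63 times the lowest, Cre-negative 1. Without Cre-positive 1 the log2 fold changes of Cpt1a, Slc25a20 and Cpt2 were -0.096, 0.14 and 0.37.

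The 4 acyl-CoA dehydrogenases, which start each round for chains of different length, all had negative log2 fold changes and none passed. Acads, for short chains, stood at 16.5, 23.2 and 14.7 CPM in Cre-negative mice and at 12.4 and 13.5 CPM in Cre-positive mice (log2 fold change -0.48 ± 0.30; edgeR adjusted p = 0.977). The groups did not overlap, but the gap between 13.5 and 14.7 CPM was smaller than the Cre-negative standard deviation of 4.47 CPM. Acadvl, for very long chains, stood at 14.9, 18.7 and 17.6 CPM against 9.29 and 17.1 CPM (-0.37 ± 0.33). The low value belonged to Cre-positive 1 alone, and leaving that mouse out gave 0.032. Acadl, for long chains, had 48.9, 104 and 39.1 CPM against 71.2 and 42.0 CPM (-0.18 ± 0.46). Acadl was highest in Cre-negative 2 and next in Cre-positive 1, which was the lowest mouse for the other 3 dehydrogenases. Acadm, for medium chains, ranged from 83.4 to 124 CPM without the Cre, and the Cre-positive mice had 64.8 and 111 CPM. Leaving out Cre-positive 1 gave 0.17 for Acadm, -0.58 for Acadl and -0.39 for Acads.

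The enzymes that complete each round were split in direction. Hadh had 405, 266 and 602 CPM in Cre-negative and 197 and 578 CPM in Cre-positive mice (log2 fold change -0.13 ± 0.51). The 2 Cre-positive mice lay near opposite ends of the range, and leaving out Cre-positive 1 gave 0.48 where leaving out Cre-positive 2 gave -1.07. Hadha and Hadhb encode the alpha and beta subunits of the mitochondrial trifunctional protein and are divergent neighbours on chromosome 5 (GRCm38), from 30118304 to 30155162 on the minus strand and from 30155248 to 30184593 on the plus strand. Hadha stood at 136, 143 and 207 CPM against 176 and 198 CPM (0.21 ± 0.25). Hadhb stood at 76.9, 74.3 and 92.2 CPM against 57.7 and 78.3 CPM (-0.25 ± 0.23). In Cre-positive 1 Hadha was above the Cre-negative mean while Hadhb was below every Cre-negative mouse. Without that mouse Hadhb had -0.019 and Hadha 0.32, and without Cre-positive 2 they had -0.46 and 0.16. Acaa2, the mitochondrial thiolase, had 15.3, 11.5 and 19.7 CPM against 6.77 and 14.1 CPM (-0.56 ± 0.40). The value rested largely on Cre-positive 1: it was -0.10 without that mouse and -1.16 without Cre-positive 2.

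Auxiliary enzymes prepare unsaturated chains for the same cycle, and Ech1 and Eci2 had the smallest unadjusted p of the 4. Ech1, a dienoyl-CoA isomerase, stood at 57.7, 44.5 and 54.9 CPM in Cre-negative and 63.9 and 65.3 CPM in Cre-positive mice. Both Cre-positive mice lay above all Cre-negative mice, with means of 64.6 ± 1.01 (SD, n = 2) and 52.4 ± 6.99 CPM (SD, n = 3) (log2 fold change 0.30 ± 0.21; edgeR adjusted p = 0.977), and the log2 fold change stayed between 0.20 and 0.40 without each mouse in turn. Eci2, an enoyl-CoA isomerase, stood at 27.1, 27.8 and 22.3 CPM against 19.7 and 22.1 CPM (-0.30 ± 0.24). Eci1, the other isomerase, ranged from 8.15 to 15.0 CPM over the 5 mice, and the reductase gene Decr1 from 26.9 to 42.8 CPM, with the groups overlapping for both. Without Cre-positive 1 the log2 fold change was 0.35 for Ech1, -0.19 for Eci2, 0.24 for Eci1 and 0.28 for Decr1.

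Electron transfer flavoprotein genes had very unequal levels. Etfa, its alpha subunit, stood at 35.9, 35.2 and 53.1 CPM in Cre-negative and 49.9 and 49.0 CPM in Cre-positive mice (log2 fold change 0.25 ± 0.26). Etfdh, the dehydrogenase that hands the electrons to ubiquinone, stood at 49.4, 41.5 and 59.6 CPM against 49.2 and 53.8 CPM (0.04 ± 0.23). Without Cre-positive 1 the values of Etfa and Etfdh were 0.27 and 0.13. Etfb, the beta subunit that pairs with Etfa in the same protein, had only 2, 4 and 4 counts without the Cre, 0 and 1 with it, and was not tested. The count of 0 in Cre-positive 1 allows up to 0.577 CPM, for counting error only. The exons of Etfb overlap 2 other annotated genes on the same strand, and the rule by which their reads were assigned is not known here.

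Among peroxisomal genes the lowest mouse was Cre-positive 1 for each gene but Pex11a. Ehhadh, the bifunctional hydratase and dehydrogenase, stood at 64.9, 53.4 and 84.1 CPM in Cre-negative and 27.7 and 71.2 CPM in Cre-positive mice (log2 fold change -0.45 ± 0.41), and the sign turned without Cre-positive 1 (0.11). Hsd17b4, the second bifunctional protein, stood at 58.0, 30.4 and 71.4 CPM against 22.6 and 77.4 CPM, the lowest and highest of all mice being the 2 Cre-positive ones. Pex11a, which promotes peroxisome division, ranged from 20.1 to 32.4 CPM with overlapping groups. Without Cre-positive 1 the log2 fold change was 0.57 for Hsd17b4 and 0.087 for Pex11a. Acaa1a, a peroxisomal thiolase, stood at 29.7, 27.1 and 29.5 CPM against 8.13 and 26.4 CPM (-0.73 ± 0.46; edgeR adjusted p = 0.977). The groups did not overlap, yet Cre-positive 2 lay within 1 CPM of Cre-negative 2: leaving out Cre-positive 1 gave -0.09, and leaving out Cre-positive 2 gave -1.78 (edgeR adjusted p = 0.130, the lowest of any member under the settings tried).

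Acaa1a and Acaa1b are near-identical thiolase genes on chromosome 9 (GRCm38, 119339676 to 119350299 on the plus strand and 119148023 to 119157093 on the minus strand). Their coding sequences are both 1272 bases long and 96.5% identical, with a longest identical run of 327 bases, and the deposited counts of each were not whole in 4 of 5 libraries. The opening 90 coding bases from the GENCODE transcripts, shown for how few positions could separate reads of the copies, have the 3 differing bases in capitals:
Acaa1a: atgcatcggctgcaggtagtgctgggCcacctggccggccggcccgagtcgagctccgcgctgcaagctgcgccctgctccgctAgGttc
Acaa1b: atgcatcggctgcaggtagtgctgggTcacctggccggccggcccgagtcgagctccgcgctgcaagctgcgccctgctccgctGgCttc
Acaa1b had 5, 4 and 7 rounded counts without the Cre, 0 and 9 with it, too few for the test. Summed over the pair the counts were 129, 150 and 188 without the Cre, 42 and 179 with it, so Cre-positive 1 was the lowest mouse for the sum as well.

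Ketone body genes overlapped between the genotypes. Acat1 joins acetyl-CoA units at the head of ketogenesis and stood at 26.4, 27.4 and 39.3 CPM in Cre-negative and 27.5 and 39.3 CPM in Cre-positive mice (log2 fold change 0.11 ± 0.29). Bdh1, which interconverts the ketone bodies, stood at 28.5, 31.3 and 43.3 CPM against 28.8 and 31.7 CPM (-0.19 ± 0.26). Cre-negative 3 was the highest or level with the highest mouse for both genes. Without Cre-positive 1 the log2 fold changes of Acat1 and Bdh1 were 0.37 and -0.089. Oxct1, no member of the set, spends ketone bodies rather than making them and stood at 100.4, 142 and 53.4 CPM against 169 and 52.9 CPM, highest in the 2 mice that were lowest for Hadh.

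PPAR targets and regulators held the largest differences, and 6 of 7 had negative log2 fold changes. Pdk4 encodes the kinase that shuts off pyruvate dehydrogenase when fat is burned, and fasting and glucocorticoids raise it in many tissues. It lies on chromosome 6 (GRCm38, 5483351 to 5496309, minus strand) and stood at 77.6, 27.4 and 53.4 CPM in Cre-negative and 9.68 and 31.6 CPM in Cre-positive mice. Cre-positive 2 lay above Cre-negative 2, so the groups overlapped, and the lowest and highest mouse differed 8.02-fold. The means were 20.6 ± 15.5 (SD, n = 2) with the Cre and 52.8 ± 25.1 CPM (SD, n = 3) without it. Its log2 fold change of -1.35 ± 0.60 had the smallest unadjusted p of the members, 0.0599 (edgeR adjusted p = 0.977), and went to -0.70 without Cre-positive 1 and -2.40 without Cre-positive 2. Angptl4, an inhibitor of lipoprotein lipase that responds to the same signals, was high in Cre-negative 1 alone, at 21.8 CPM, against 5.37 and 6.84 CPM in Cre-negative 2 and 3 and 10.1 and 7.93 CPM in Cre-positive mice (-0.32 ± 0.62, and -0.45 without Cre-positive 1).

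Acot1 and Acot2 are acyl-CoA thioesterases, cytosolic and mitochondrial, encoded side by side on chromosome 12 (GRCm38, 84009490 to 84018371 and 83987861 to 83993873, both on the plus strand). Over 1236 aligned coding bases they are 95.6% identical, and their deposited counts were not whole in 4 libraries. Acot1 stood at 3.59, 2.78 and 6.68 CPM in Cre-negative and 2.32 and 2.80 CPM in Cre-positive mice (log2 fold change -0.77 ± 0.51). Acot2 stood at 14.4, 4.82 and 10.1 CPM against 6.58 and 5.75 CPM (-0.65 ± 0.48). Without Cre-positive 1 the values of Acot1 and Acot2 were -0.62 and -0.71. Summed, the pair had 18.0, 7.60 and 16.8 CPM against 8.90 and 8.55 CPM, so both Cre-positive mice lay between Cre-negative 2 and the other 2 Cre-negative mice.

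Vnn1 and Ppargc1a differed widely between the 2 Cre-positive mice, and Ucp2 did not. Vnn1 stood at 196, 137 and 160 CPM in Cre-negative and 68.9 and 334 CPM in Cre-positive mice, the latter being the lowest and the highest of the 5 and 4.84-fold apart. The log2 fold change, 0.29 ± 0.58 over all mice, became 1.06 without Cre-positive 1 and -1.21 without Cre-positive 2. Ppargc1a, the coactivator PGC-1alpha that drives mitochondrial and oxidative genes, stood at 151, 94.3 and 202 CPM against 42.8 and 172 CPM (-0.47 ± 0.58). Leaving out Cre-positive 1 turned it to 0.24. Ucp2, an inner membrane carrier of the uncoupling protein family, had the narrowest range of the members tested, at 175, 163 and 151 CPM against 132 and 142 CPM. The groups did not overlap for Ucp2, and its log2 fold change of -0.25 ± 0.20 did not pass (edgeR adjusted p = 0.977). Without Cre-positive 1 it was -0.16.

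**Figure D4:**
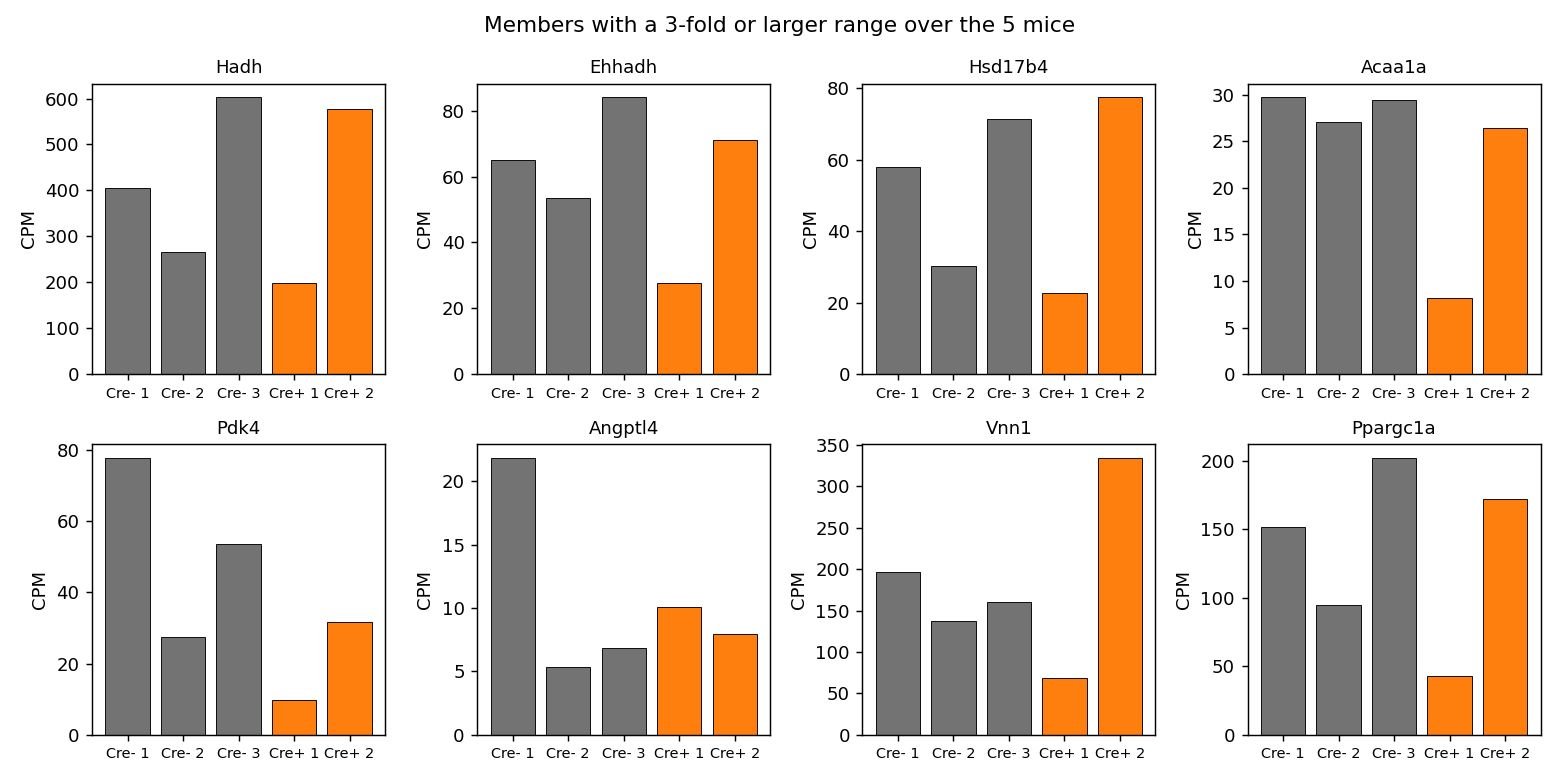
CPM in each mouse (bars from 0; Cre- grey, Cre+ orange) for the 8 members tested whose highest and lowest mouse differed 3-fold or more. Cre+ 1 is the lowest bar in 7 panels, the exception being Angptl4, and Cre+ 2 reaches the level of the Cre- mice in most, including 578 CPM for Hadh.

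A shared order of the mice ran through many members, across genotype. Cre-negative 2 and Cre-positive 1 were the 2 lowest libraries for 12 of 30 members tested, or 40%, against 13.9% of all genes tested. The 12 were Acadm, Hadhb, Hadh, Acaa2, Eci1, Etfdh, Ehhadh, Hsd17b4, Pdk4, Acot1, Vnn1 and Ppargc1a. The same libraries were the 2 highest for Slc25a20 and Acadl, 2 of 30, against 10.1% of all genes. This order was noticed after the values were seen, and genes of the same 5 libraries are not independent, so it carries no test. Among the other genes of the pathway, 36 of 84 tested, or 42.9%, had these libraries lowest, Ppara and Creb3l3 among them.

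The summed enterocyte markers followed this order. The summed lists of markers of position along the intestine did not, but such sums weigh the most abundant genes most. The 19 enterocyte markers summed to 31773, 22996 and 38705 CPM in Cre-negative 1, 2 and 3. In Cre-positive 1 and 2 they summed to 19973 and 43952 CPM, so Cre-negative 2 and Cre-positive 1 were again lowest. Apob made up a large part of these sums. Fabp1 and Fabp2, counted above among the other genes of the pathway, are also in this list. Of single position genes, picked after their values were seen, Lct, the lactase gene of proximal villi, is also 1 of the 19 enterocyte markers. Lct stood at 259, 15.8 and 881 CPM against 3.48 and 632 CPM. Slc10a2, the ileal bile acid transporter, stood at 218, 376 and 6.52 CPM against 810 and 45.9 CPM. Over the whole list the proximal markers (7 of 8 present) summed to 166, 189 and 260 CPM in Cre-negative 1, 2 and 3, against 269 CPM for Cre-positive 1, the highest library, and 157 CPM for Cre-positive 2, the lowest. The distal markers (9 of 10 present) summed to 2702, 1423 and 911 CPM, against 2323 and 2077 CPM for Cre-positive 1 and 2 in that order. Gene by gene, Cre-positive 1 was lowest for 14 of 19 enterocyte, 3 of 7 proximal and 1 of 9 distal markers, against 29.0% of all genes tested. Cre-negative 3 was highest for 4 of 7 proximal markers and lowest for 6 of 9 distal markers, each against 17.0% of all genes. Smooth muscle markers, all 10 present, summed to 1516 to 3898 CPM and 1275 and 1545 CPM. Goblet cell markers, all 8 present, summed to 574 to 1364 CPM and 5080 and 2281 CPM. The part of these cell types, or of position along the intestine, in the members' values was not tested. In whole tissue, fewer cells of a type and less RNA per cell cannot be told apart.

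The members' summed level was lowest in the same libraries as the enterocyte markers. All 32 members summed to 2137, 1842 and 2601 CPM in Cre-negative and 1545 and 2579 CPM in Cre-positive mice, a mean of 2193 ± 382 (SD, n = 3) against 2062 ± 731 CPM (SD, n = 2). The difference between the means was smaller than either SD. As a share of the summed enterocyte markers, the members came to 6.73%, 8.01% and 6.72% without the Cre, 7.74% and 5.87% with it. On this scale Cre-negative 2 and Cre-positive 1 were the 2 highest libraries, where they had been the 2 lowest in CPM. Hadh alone made up 12.8% to 23.2% of the members' sum.

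No other gene of the pathway passed the test. Of 102 genes in 3 lists, 88 were in the table and 84 were tested, and 0 were called higher and 0 lower with edgeR, with 1 at an unadjusted p under 0.05. That gene was Mgll, monoacylglycerol lipase, at 15.8, 7.60 and 6.52 CPM without the Cre against 4.84 and 3.89 CPM (log2 fold change -1.18 ± 0.48; edgeR adjusted p = 0.977), and -1.30 without Cre-positive 1. Without that mouse 36 of 86 tested had negative log2 fold changes, where 63 of 84 had them with it, and the median went from -0.24 to 0.082. Of 37 other oxidation genes tested, 25 had negative log2 fold changes with a median of -0.16. Acsl5, which activates fatty acids, stood at 427, 285 and 516 CPM against 281 and 556 CPM. Acsl4, Acox3 and Hsd17b10 had the smallest unadjusted p of that list, with log2 fold changes of -0.81 ± 0.47, -0.40 ± 0.23 and 0.62 ± 0.38. Without Cre-positive 1 these were -1.48, -0.26 and 0.31, and the list's median was 0.12. Of 7 other ketone body genes tested, 5 were negative with a median of -0.34, and the transporter genes Slc16a7 and Slc16a1 had -0.63 and -0.34. Without Cre-positive 1 that median was -0.18.

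Of 40 other PPAR targets, receptors and regulators tested, 33 had negative log2 fold changes and the median was -0.30, which without Cre-positive 1 was 0.083. Ppara, the receptor gene, stood at 19.4, 15.0 and 24.6 CPM in Cre-negative and 11.4 and 22.5 CPM in Cre-positive mice (-0.21 ± 0.37, and 0.23 without Cre-positive 1). Fabp2, the intestinal fatty acid binding protein, had 1445, 616 and 968 CPM against 314 and 1233 CPM, and Ncor1, a corepressor, 494, 462 and 647 CPM against 359 and 681 CPM. Slc25a34, a mitochondrial carrier, had a log2 fold change of -0.90 ± 0.46, and Sirt3, a mitochondrial deacetylase, -0.60 ± 0.32. For both genes Cre-positive 1 was the lowest mouse and both Cre-positive mice lay below the Cre-negative ones. Without Cre-positive 1 they had -0.31 and -0.34. Creb3l3, a liver and gut regulator of fat oxidation, stood at 163, 70.6 and 181 CPM against 30.8 and 176 CPM, the order of Hadh.

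Promoters of the members were searched for PPAR motifs because PPARalpha is known to drive many of them. PPAR binds AGGTCA repeats, and the classic element is 2 copies spaced by 1 base, AGGTCANAGGTCA. In RefSeq windows of 300 bases on GRCm38.p6, from 250 before to 50 after a start, 26 members were matched. That element, searched on both strands, was in 0 of the 26 and in 0.0481% of all genes with a window, and AGGNCANAGGNCA, which contains it, was in 0 of 26 and 0.451%. The single AGGTCA was in 3 of 26, or 11.5%, and in 18.1% of all genes. Sequence around these 3 matches, cut at the window's edges, is shown 5′ to 3′ along each gene with the motif, or its reverse complement TGACCT, in capitals. The stretches are chr3:153944857-153944893 (minus strand) for Acadm, chr11:70015480-70015545 (minus strand) for Acadvl and chr19:3323177-3323242 (plus strand) for Cpt1a:
Acadm: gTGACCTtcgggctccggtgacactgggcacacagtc
Acadvl: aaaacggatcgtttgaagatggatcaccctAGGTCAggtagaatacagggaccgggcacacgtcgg
Cpt1a: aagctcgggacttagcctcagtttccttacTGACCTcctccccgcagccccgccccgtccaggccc
The motif begins 249, 87 and 94 bases before the RefSeq start used for Acadm, Acadvl and Cpt1a. For Cpt1a the motif, at 3323207, lies inside the GENCODE gene, which begins at 3322334, so the starts of the 2 annotations differ. A match in these windows describes letters only and shows no binding. The 0 of 26 for each repeat was the likely count at such low shares over all genes, so it does not set the members apart. Sites outside the windows were not searched.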

How the data were processed

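RNA of small intestine from 5 mice, each with its own number in the labels, was sequenced with rRNA removed, per the labels' protocols. The authors deposited estimated counts for 19198 genes by symbol, made with Partek on mm10 per the submitters' processing notes; how reads were aligned, counted and assigned to strands is not given in the sources. Of the deposited values, 19.6% to 21.7% in a library were farther than 0.005 from a whole number, and all were rounded. The genotype label sets the groups, and replicate numbers follow record order.

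Counts were tested with edgeR 4.0.16 under R 4.3.3: TMM factors, filterByExpr with a minimum count of 10 (14352 genes left, 4846 removed), robust quasi-likelihood fitting with 3 residual degrees of freedom, Benjamini-Hochberg adjustment over all genes tested and a threshold of 0.05. The SE is the fold change (log2) over the root of its F. CPM values use TMM-scaled library sizes. Members and gene lists were chosen with earlier results of these data known. Full values are given for the 2 members of each role with the smallest unadjusted p and the one highest per kb, and each pathway list is named by its 3 smallest p and 2 highest levels, with Ppara; a few genes that this rule names are not reported here, and other non-members were named after their values were seen. Coordinates and exon lengths come from GENCODE M21 on GRCm38, which matched all 32 members. Exons of 8 members overlap a gene on the opposite strand and of 1 on the same strand, and 12 members had values that were not whole, so these are uncertain. Promoters are from RefSeq. The comparison of protein sequences planned for the thiolase and thioesterase pairs was replaced by coding sequence.

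On simulated data for 14007 genes, 37 of 98 genes changed 4-fold and 2 of 96 changed 2-fold were called, with 4 of 13813 unchanged. Alternatives were RLE and total-count scaling, no filter, a filter of 5 CPM in 2 libraries, DESeq2 1.42.0, limma-voom (limma 3.58.1) and leaving out each mouse.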

Additional observations from a re-analysis of the deposited data

How the results depend on the processing

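No paired analysis was possible because the labels give the groups no shared replicate numbers. The count of members called was 0 under every alternative tried. Over all genes, 0 were called with edgeR, 19 with DESeq2 and 0 to 58 without each mouse in turn, the 58 without Cre-positive 2. The members' median log2 fold change of -0.18 was between -0.20 and -0.16 under the other scalings, filters and tools, and ran from -0.33 to 0.10 without each mouse. Of 329 values of single members under the alternatives, 304 kept the sign of the main result and 25 in 16 members did not. Without each mouse in turn the log2 fold change crossed 0 for Cpt1a (-0.13 to 0.18), Acadvl (-0.84 to 0.032), Acadl (-0.58 to 0.36), Acadm (-0.60 to 0.17), Hadh (-1.07 to 0.48), Decr1 (-0.011 to 0.39), Eci1 (-0.32 to 0.34), Etfdh (-0.084 to 0.22), Ehhadh (-1.25 to 0.11), Hsd17b4 (-1.19 to 0.57), Pex11a (-0.24 to 0.087), Acat1 (-0.14 to 0.37), Bdh1 (-0.28 to 0.055), Angptl4 (-0.66 to 0.58), Vnn1 (-1.21 to 1.06) and Ppargc1a (-1.76 to 0.24). The mouse whose removal turned the sign was Cre-positive 1 for Acadvl, Acadm, Hadh, Eci1, Ehhadh, Hsd17b4, Pex11a and Ppargc1a, Cre-negative 3 for Cpt1a, Acadm, Hadh, Eci1, Hsd17b4, Pex11a and Bdh1, Cre-positive 2 for Cpt1a, Acadl, Acat1 and Vnn1, Cre-negative 2 for Acadl, Decr1 and Etfdh, and Cre-negative 1 for Hsd17b4 and Angptl4. With limma-voom Vnn1 had -0.10. An alternative chosen after seeing the data left out each mouse for the pathway lists: their median log2 fold change ran from -0.39 to 0.12 for other oxidation genes, from -0.44 to -0.18 for other ketone body genes, from -0.68 to 0.083 for other PPAR targets, receptors and regulators and from -0.52 to 0.082 for the 3 lists together, with 0 genes called each time. The cause of these turns was not tested. A fit without a Cre-positive mouse assumes that the other varies like the Cre-negative mice. Depth limits Etfb and Acaa1b, at 0 to 9 counts a library.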
